A study of Mus musculus with 6 samples.

Results

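The 8 genes described here, Moxd1, Tnnt1, Ubxn11, Gm10603, Gm10677, Arrdc4, Zc3h6 and Mus81, were taken from the 19938 genes measured because their signal on the 4OHT arrays stood apart. The choice rested on measured values: 7 of them were among the genes with the smallest p or the largest statistic for 4OHT against untreated, and Mus81 was taken from 4OHT against Shld1. Their differences in these 2 comparisons are therefore given as a description, without a test. The intervals printed with them below take no account of this choice. An interval that leaves out 0 is thus not read as a change. None of the 8 passed after adjustment over all genes. In 4OHT against untreated the adjusted p was 0.96 for each (limma), and in 4OHT against Shld1 it ran from 0.37 to 0.894 (limma). All 8 were found on the array by symbol, through 9 probe sets of the 35556, and only Zc3h6 had more than 1 probe set.

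The samples were RW4 cells, an embryonic stem cell line of the mouse, grown with serum and leukemia inhibitory factor on gelatin, and each group had 2 single-colour Affymetrix arrays of total RNA. The first group was given 1 µM 4-hydroxytamoxifen (4OHT) and is labelled with the ERT2 induction system, the second was given 1 µM Shld1 and is labelled with the FKBP induction system, and the third, untreated, is labelled WT. The labels do not say whether the treated cells carried an ERT2 or FKBP fusion, so agent and any such fusion cannot be told apart, and the sources used here do not give the length of treatment. The arrays of a group are named duplicates without word of separate cultures, so every error and p-value below measures a spread that could be technical.

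4OHT, the active metabolite of tamoxifen, binds estrogen receptors, and the mutated ERT2 domain is used to make fused proteins respond to it. Shld1 is a ligand that protects proteins fused to a destabilised FKBP domain from degradation. The series was made to see what these inducers alone do to gene expression in stem cells. The 8 genes belong to no common pathway. Arrdc4 is an alpha-arrestin, a family of adaptors that bring ubiquitin ligases to membrane proteins; in human and mouse cells its transcription follows glucose through the factor MondoA, as does that of its relative Txnip. Tnnt1 encodes troponin T of slow skeletal muscle, which anchors the troponin complex to tropomyosin. Moxd1 encodes a relative of the copper enzyme dopamine beta-hydroxylase. Mus81 is the catalytic subunit of a nuclease that cuts branched DNA at stalled replication forks and recombination intermediates. Ubxn11 carries a UBX domain, the module by which many proteins bind the segregase p97, and Zc3h6 carries zinc fingers of the CCCH type, which commonly bind RNA. Gm10603 and Gm10677 are annotated as long noncoding RNAs, and no role is given for them here.

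Promoter windows of 4 genes are shown because Arrdc4 and its relative Txnip had lower signal on both 4OHT arrays, because Ubxn11 held the same E-box as Arrdc4, and because Tnnt1 was the 1 gene of the 8 with a TATA box. The windows, from RefSeq on GRCm38.p6, run from 250 bases before to 50 after the annotated start, and each reads 5′ to 3′ on the strand of its gene. Capitals mark CACGTG (the palindromic E-box, bound by many factors), CACGAG (an E-box-like variant, known as a pair from the carbohydrate response element of human TXNIP, to which MondoA binds), CCAAT and TATAAA, searched on both strands, with no overlap between the matches shown.
Arrdc4, chr7:68749189-68749488, minus strand: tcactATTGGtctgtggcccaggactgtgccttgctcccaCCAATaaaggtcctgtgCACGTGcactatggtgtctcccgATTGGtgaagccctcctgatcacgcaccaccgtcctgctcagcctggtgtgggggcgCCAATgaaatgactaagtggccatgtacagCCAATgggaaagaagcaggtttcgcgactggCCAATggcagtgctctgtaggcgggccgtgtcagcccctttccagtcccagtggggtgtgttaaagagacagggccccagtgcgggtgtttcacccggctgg
Txnip, chr3:96557707-96558006, plus strand: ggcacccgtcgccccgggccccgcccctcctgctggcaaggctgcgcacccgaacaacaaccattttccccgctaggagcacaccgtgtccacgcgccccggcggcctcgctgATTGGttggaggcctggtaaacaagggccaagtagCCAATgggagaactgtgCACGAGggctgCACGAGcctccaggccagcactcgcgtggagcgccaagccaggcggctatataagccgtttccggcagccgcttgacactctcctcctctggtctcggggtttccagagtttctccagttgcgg
Ubxn11, chr4:134102333-134102632, plus strand: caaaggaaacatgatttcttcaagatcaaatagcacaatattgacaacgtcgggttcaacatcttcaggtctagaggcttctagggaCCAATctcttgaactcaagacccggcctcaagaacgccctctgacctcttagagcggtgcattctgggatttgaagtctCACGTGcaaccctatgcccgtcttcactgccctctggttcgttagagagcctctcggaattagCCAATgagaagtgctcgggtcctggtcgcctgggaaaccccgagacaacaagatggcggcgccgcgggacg
Tnnt1, chr7:4515926-4516225, minus strand: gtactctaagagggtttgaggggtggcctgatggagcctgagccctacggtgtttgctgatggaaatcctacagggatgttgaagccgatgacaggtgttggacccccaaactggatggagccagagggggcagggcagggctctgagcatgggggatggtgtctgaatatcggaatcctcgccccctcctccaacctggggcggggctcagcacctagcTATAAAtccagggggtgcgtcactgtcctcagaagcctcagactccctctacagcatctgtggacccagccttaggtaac

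The Arrdc4 window held 1 CACGTG, at 193 bases before the start, and 6 CCAAT boxes between 245 and 52 bases before it. Of all 32851 windows in the table, 7.15% held a CACGTG, 37.4% held a CCAAT and 0.271% held 5 or more CCAAT boxes. The Txnip window held 2 CCAAT boxes and 2 copies of CACGAG, at 85 and 74 bases before the start, and no CACGTG. The variant CACGAG was in none of the 8 windows, in 6.47% of all windows once or more and in 0.359% at least 2 times. The Ubxn11 window held 1 CACGTG, at 84 bases, and 2 CCAAT boxes. The CCAAT and CACGAG searches were added after the sequences had been read. In Tnnt1 the TATAAA began 30 bases before the start, and 13.6% of all windows held one. The palindromic estrogen response element, searched as its full consensus on both strands, was in none of the 8 windows and in 0.07% of all windows. The windows of the 8 genes also differed in CpG content, with 28 CpG dinucleotides in Zc3h6, 17 in Ubxn11, 13 in Moxd1, 11 in Arrdc4, 7 in Mus81, 6 each in Tnnt1 and Gm10677, and 4 in Gm10603, against a median of 7 over all windows. These matches describe letters and show no binding.

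Signals are log2 values as deposited, so a difference of 1 is 2-fold. Arrays of the same group correlated at r = 0.989 to 0.995 across genes, which are not independent replicates, and the replicate gap had a median of 0.166 on the 4OHT arrays, 0.195 on the Shld1 arrays and 0.124 on the untreated arrays. Signals spread less widely on 4OHT replicate 1 (SD 2.29) and Shld1 replicate 2 (SD 2.24) than on the other arrays (SD 2.33 to 2.35). All 10 markers of embryonic stem cells lay above the low-signal level defined below, with a list mean of 9.92 to 10.00 on the 4OHT arrays, 9.79 to 9.98 on the Shld1 arrays and 9.93 to 9.97 on the untreated arrays. Of the fibroblast markers 4 of 8 lay above that level, with list means of 3.77 to 4.02 with 4OHT, 3.84 to 3.87 with Shld1 and 3.79 to 3.83 untreated. All 6 markers of primitive endoderm lay above it, with list means of 5.57 with 4OHT, 5.63 with Shld1 and 5.54 untreated. So did 4 of 6 trophoblast markers, with list means of 4.29 with 4OHT, 4.28 with Shld1 and 4.36 untreated. Limma called 0 genes after Benjamini-Hochberg adjustment in each comparison. The smallest adjusted p of any gene was 0.96 in 4OHT against untreated, 0.37 in 4OHT against Shld1 and 0.986 in Shld1 against untreated (limma). Of the 19938 genes, 995, 1117 and 866 had an unadjusted p under 0.05 in these comparisons, in that order. A share of 0.05 of all genes would do so where nothing differs, so these counts are not read as changed genes.

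In all 8 genes the 4OHT arrays lay outside the range of the other 4 arrays, below it in 6 genes and above it in 2. Across all genes, both 4OHT arrays lay below the other 4 at 7.70% and above them at 6.66%; the 8 genes were chosen on these arrays, so nothing is read from that contrast. Against the untreated arrays alone, the 4OHT arrays did not overlap at any of the 8 (6 below, where 20.4% of all genes were; 2 above, where 17.3% were), and against the Shld1 arrays likewise (6 below, 15.6% of all genes; 2 above, 14.9%). The median difference of the 8 genes was -0.67 for 4OHT minus untreated and -0.49 for 4OHT minus Shld1, against -0.009 and -0.004 over all genes.

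**Figure D1:**
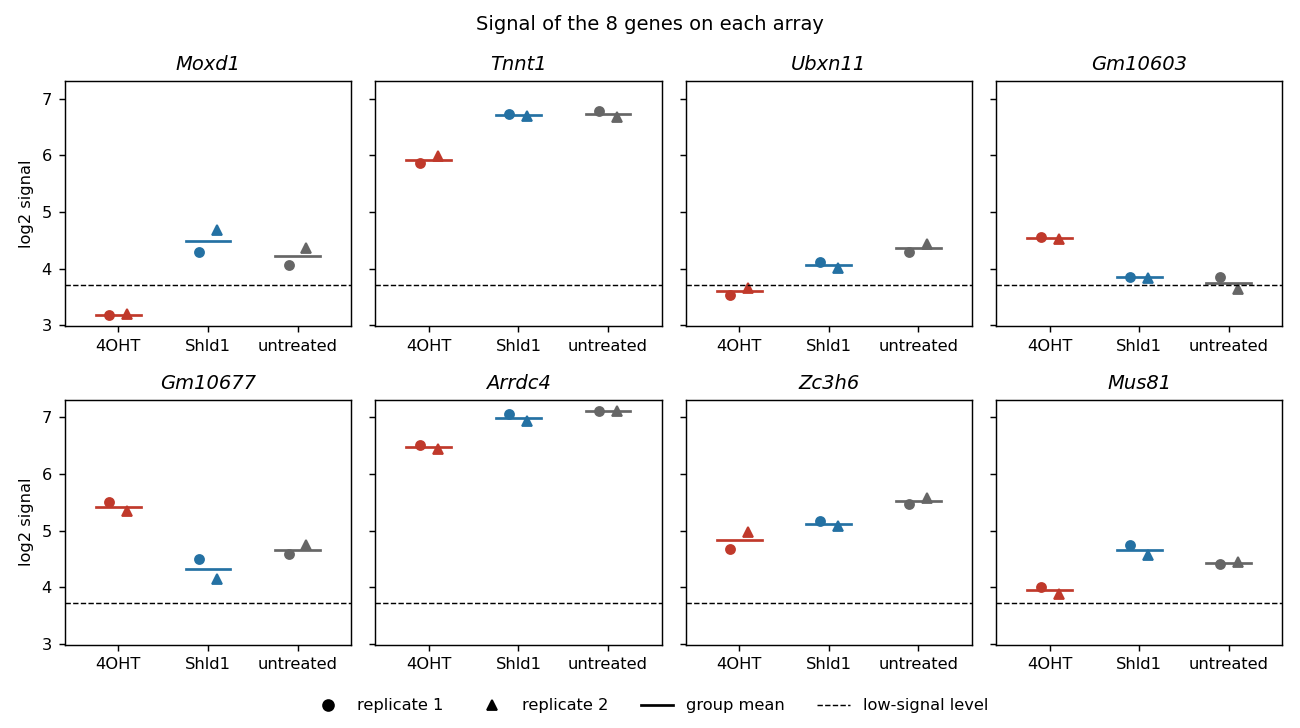
Log2 signal (y axis) of the 8 genes on each array, with 4OHT, Shld1 and untreated cells along the x axis; circles are replicate 1, triangles replicate 2, bars the group means, and the dashed line the low-signal level of 3.71. In each gene both 4OHT arrays lie outside the range of the other 4 arrays, above it in Gm10603 and Gm10677 and below it in the other 6.

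Tnnt1 (chromosome 7, probe set 10559547) had a signal of 5.86 and 5.99 on the 4OHT arrays, 6.73 and 6.69 on the Shld1 arrays and 6.78 and 6.68 on the untreated arrays. The Shld1 and untreated arrays overlapped, and the 4OHT arrays lay 0.69 below the nearest untreated array, more than the largest replicate gap of this gene (0.13). The means were 5.92 ± 0.09 with 4OHT, 6.71 ± 0.03 with Shld1 and 6.73 ± 0.07 untreated (SD, n = 2 each), which made 4OHT minus untreated -0.80 (SE 0.14, 95% interval -1.12 to -0.49), or 1.75-fold lower, and 4OHT minus Shld1 -0.79 (SE 0.14). For Shld1 minus untreated the difference was -0.02 (95% interval -0.33 to 0.30; limma, adjusted p = 0.999), and its sign depended on the setting.

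Arrdc4 (chromosome 7, probe set 10564507) had a signal of 6.51 and 6.44 on the 4OHT arrays, 7.06 and 6.93 on the Shld1 arrays and 7.12 on both untreated arrays. The group means stood in the order untreated, Shld1, 4OHT, and the Shld1 arrays lay only 0.06 below the untreated ones. The 4OHT mean of 6.47 ± 0.05 was 0.64 below the untreated mean of 7.12 ± 0.002 (difference -0.64, SE 0.14, 95% interval -0.96 to -0.33) and differed by -0.52 (SE 0.14) from the Shld1 mean of 6.99 ± 0.09. The untreated replicate gap of 0.003 was unusually small: 1.68% of genes had a smaller one.

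Moxd1 (chromosome 10, probe set 10362186) had a signal of 3.18 and 3.19 on the 4OHT arrays, 4.30 and 4.68 on the Shld1 arrays and 4.06 and 4.37 on the untreated arrays. The Shld1 and untreated arrays overlapped, and each pair was wide apart, by 0.37 with Shld1 and 0.31 untreated, while on the 4OHT arrays only 1.94% of genes had a smaller gap. The means were 3.18 ± 0.004 with 4OHT, 4.49 ± 0.26 with Shld1 and 4.22 ± 0.22 untreated (SD, n = 2 each). 4OHT minus untreated was -1.03 (SE 0.17, 95% interval -1.42 to -0.64) and 4OHT minus Shld1 was -1.30 (SE 0.17, 95% interval -1.69 to -0.92), the largest difference of the 8 genes in both of these comparisons. Both 4OHT arrays lay in the range of low-signal genes, which limits the size that could be measured.

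Ubxn11 (chromosome 4, probe set 10508936) had a signal of 3.54 and 3.65 on the 4OHT arrays, 4.12 and 4.01 on the Shld1 arrays and 4.29 and 4.43 on the untreated arrays. The 3 groups did not overlap and stood in the order untreated, Shld1, 4OHT. 4OHT minus untreated was -0.77 (SE 0.14), 4OHT minus Shld1 was -0.47 (SE 0.14), and Shld1 minus untreated was -0.30 (95% interval -0.62 to 0.02). As for Moxd1, neither 4OHT array was above the low-signal level.

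Zc3h6 (chromosome 2, probe set 10475941) had a signal of 4.68 and 4.97 on the 4OHT arrays, 5.16 and 5.08 on the Shld1 arrays and 5.47 and 5.57 on the untreated arrays. Here the Shld1 arrays lay between the others, and the gap of 0.29 between the 4OHT arrays was larger than the 0.11 that separated them from the nearest Shld1 array. 4OHT minus untreated was -0.70 (SE 0.15), 4OHT minus Shld1 was -0.29 (SE 0.15, 95% interval -0.63 to 0.05) and Shld1 minus untreated was -0.40 (SE 0.15, 95% interval -0.74 to -0.06). The other Zc3h6 probe set, 10475946, had 3.61 and 3.75 on the 4OHT arrays, 3.84 and 4.09 on the Shld1 arrays and 4.00 and 4.10 on the untreated arrays. On it the Shld1 and untreated arrays overlapped, and 4OHT minus untreated was -0.37 (SE 0.15) and Shld1 minus untreated -0.09 (SE 0.15), in a fit over all probe sets. The probe sets thus gave the same side for 4OHT, with a smaller difference on the second. On that second probe set the 4OHT mean of 3.68 lay just below the low-signal level of 3.71, which limits the size that could be measured.

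Mus81 (chromosome 19, probe set 10465072) had a signal of 4.00 and 3.88 on the 4OHT arrays, 4.74 and 4.57 on the Shld1 arrays and 4.40 and 4.45 on the untreated arrays. The groups did not overlap, and the Shld1 arrays lay above the untreated ones. 4OHT minus Shld1 was -0.71 (SE 0.14, 95% interval -1.03 to -0.39), 4OHT minus untreated was -0.48 (SE 0.14, 95% interval -0.80 to -0.16), and Shld1 minus untreated was 0.23 (95% interval -0.09 to 0.55). Of the 8 genes, it had the smallest difference between 4OHT and untreated.

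The noncoding genes were the 2 with a higher signal on the 4OHT arrays. Gm10603 (chromosome 7, probe set 10565888) had a signal of 4.56 and 4.52 on the 4OHT arrays, 3.85 and 3.84 on the Shld1 arrays and 3.85 and 3.64 on the untreated arrays. 4OHT minus untreated was 0.80 (SE 0.14, 95% interval 0.48 to 1.12) and 4OHT minus Shld1 was 0.70 (SE 0.14), and the Shld1 and untreated arrays overlapped near the low-signal level. Gm10677 (chromosome 9, probe set 10593196) had a signal of 5.50 and 5.34 on the 4OHT arrays, 4.50 and 4.14 on the Shld1 arrays and 4.58 and 4.74 on the untreated arrays. Both Shld1 arrays lay below both untreated arrays, by 0.08 at the nearest, against a gap of 0.36 between the Shld1 arrays themselves. 4OHT minus untreated was 0.76 (SE 0.17, 95% interval 0.39 to 1.13) and 4OHT minus Shld1 was 1.10 (SE 0.17, 95% interval 0.73 to 1.47).

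**Figure D2:**
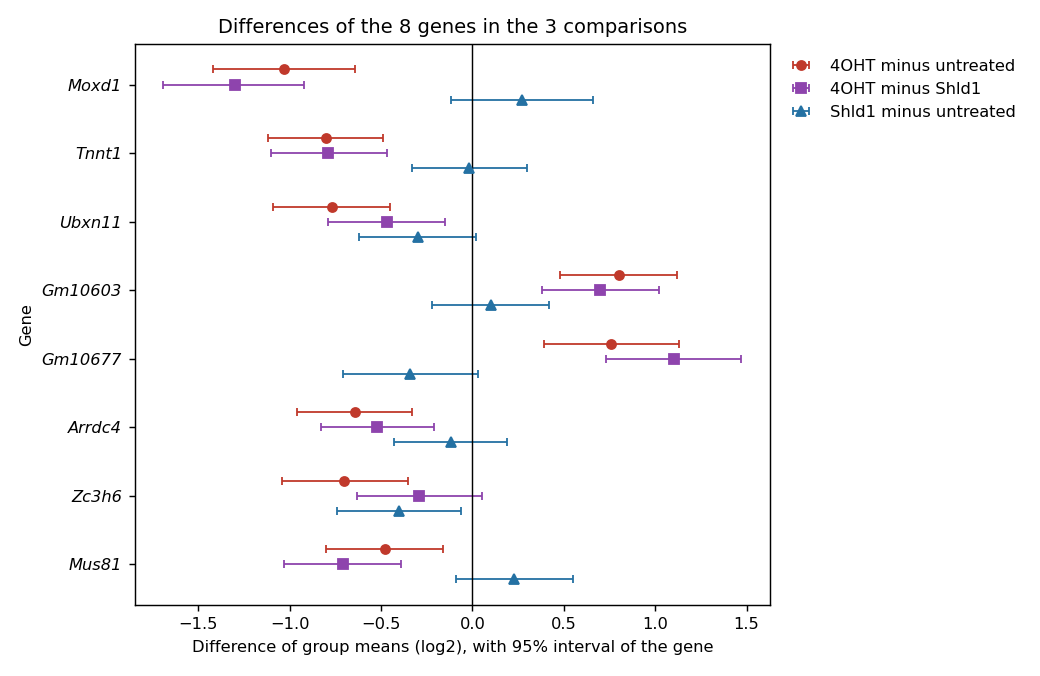
Difference of group means on the log2 scale (x axis) for each of the 8 genes (y axis) in the 3 comparisons. The 95% interval of each gene is from limma, not adjusted for the number of genes or for their choice. The Shld1 minus untreated values run from -0.40 in Zc3h6 to 0.27 in Moxd1, and the intervals of 7 genes there include 0.

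Shld1 against untreated was the comparison that the choice of genes did not use directly, although it shares its arrays with the other 2 comparisons. None of the 8 genes passed (limma, adjusted p = 0.999 for each), and of all genes 0% passed. The interval of Zc3h6 was the 1 of the 8 that left out 0, before any adjustment. The differences ran from -0.40 to 0.27 with a median of -0.07, against -0.004 over all genes. The upper end, Moxd1, rested on single arrays: it was 0.458 without Shld1 replicate 1, 0.085 without Shld1 replicate 2, 0.115 without untreated replicate 1 and 0.428 without untreated replicate 2. The Shld1 arrays lay below the untreated arrays in 4 of the 8 (Ubxn11, Gm10677, Arrdc4 and Zc3h6), where 17.3% of all genes did. They lay above the untreated arrays in 1 (Mus81), where 15.2% did, and overlapped in 3. The choice of genes used the untreated arrays, and for Mus81 the Shld1 arrays, so nothing is read from these counts. Set side by side, Ubxn11, Arrdc4 and Zc3h6 were lower than untreated on both agents' arrays, and Gm10677 and Mus81 lay on opposite sides of the untreated arrays with the agents; the agents share those untreated arrays.

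The distance from genes without detectable expression was measured with the 1027 olfactory receptor genes on the array, which are known chiefly from sensory neurons of the nose. The 95th percentile of their mean signal was 3.71, called the low-signal level here. By their mean over 6 arrays, 12841 genes (64.4%) lay above it, and so did each of the 8 genes. Counted array by array on the brightest probe set, Tnnt1, Gm10677, Arrdc4, Zc3h6 and Mus81, 5 of the 8, lay above it on all 6 arrays. The share of all genes above it on all 6 arrays was not counted. With 4OHT the group means stood 2.76 above the level in Arrdc4, 2.21 in Tnnt1, 1.71 in Gm10677, 1.11 in Zc3h6 and 0.23 in Mus81. Moxd1 and Ubxn11 were above it on 4 arrays each, those without 4OHT, and their 4OHT means were at -0.53 and -0.12 from it. Gm10603 was above it on 5 arrays: its 4OHT mean was 0.83 above, its Shld1 mean 0.13 above and its untreated mean 0.03 above. In Moxd1, Ubxn11 and Gm10603 one end of the difference thus lay within 0.03 of the level or below it, where olfactory receptor genes are also found.

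**Figure D3:**
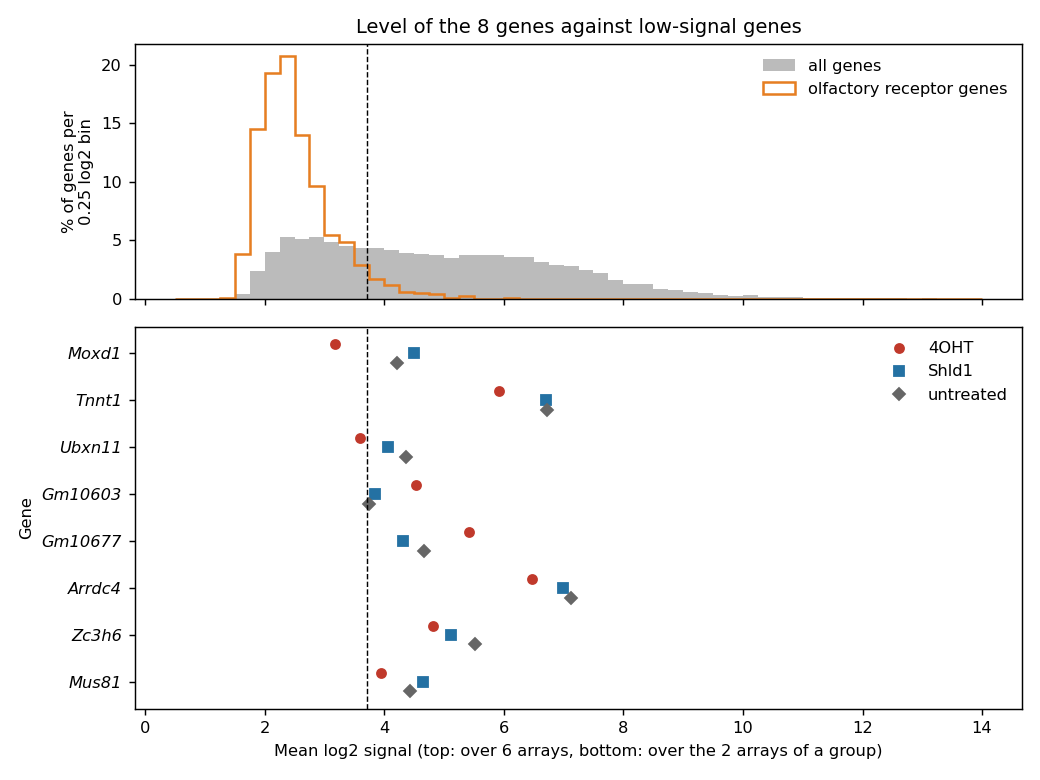
Top, share of all 19938 genes (grey) and of the 1027 olfactory receptor genes (orange line) in each bin of mean log2 signal over 6 arrays; bottom, group means of the 8 genes over 2 arrays on the same x axis. The dashed line is the low-signal level of 3.71, below which the 4OHT means of Moxd1 and Ubxn11 fall.

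The neighbours of the 8 genes on their chromosomes were then examined, since genes lying close together can vary together. The nearest measured gene on either side was taken from the order of genes on GRCm38.p6, which gave 16 different genes. Their 4OHT minus untreated differences ran from -0.31 to 0.25 with a median of -0.05, and 0 of the 16 passed the adjusted test (limma, 0% of all genes). Tnni3, which encodes cardiac troponin I and lies next to Tnnt1, was the 1 neighbour of 16 whose 4OHT arrays lay outside the range of the other 4, below it, as 7.70% of all genes did (6.66% lay above). Its arrays read 6.04 and 6.03 with 4OHT, 6.36 and 6.60 with Shld1 and 6.33 and 6.25 untreated, with 4OHT minus untreated at -0.25 (SE 0.15, 95% interval -0.58 to 0.08). Ppp1r12c, on the other side of Tnnt1, differed by 0.05 (SE 0.17). The noncoding genes each overlap a coding gene that is also on the array. Gm10603 overlaps C2cd3, a gene of centriole assembly, which differed by -0.14 (SE 0.14), and Gm10677 overlaps Cadm1, a cell adhesion gene, which differed by -0.10 (SE 0.16), both against a higher signal of the noncoding gene. The sources used here do not give the strand that the probes read. Cfl1, the cofilin gene beside Mus81, differed by 0.03 (SE 0.14), and Zc3h8, a CCCH gene beside Zc3h6, by 0.10 (SE 0.17). The other neighbours were Stx7 and Ccn2 (beside Moxd1), Cd52 and Sh3bgrl3 (Ubxn11), Ucp3 (Gm10603), Nxpe4 (Gm10677), Gm5334 and Nr2f2 (Arrdc4), Ttl (Zc3h6) and Ctsw (Mus81). Nr2f2 had the lowest value (-0.31, SE 0.25) and Ccn2 the highest (0.25, SE 0.14). Nr2f2, Gm5334, Ucp3 and Nxpe4 lay above the low-signal level on 0 of 6 arrays, and Cd52 on 2 of 6. Both neighbours of Arrdc4 thus lay in the range of low-signal genes, so their differences say little about that region.

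**Figure D4:**
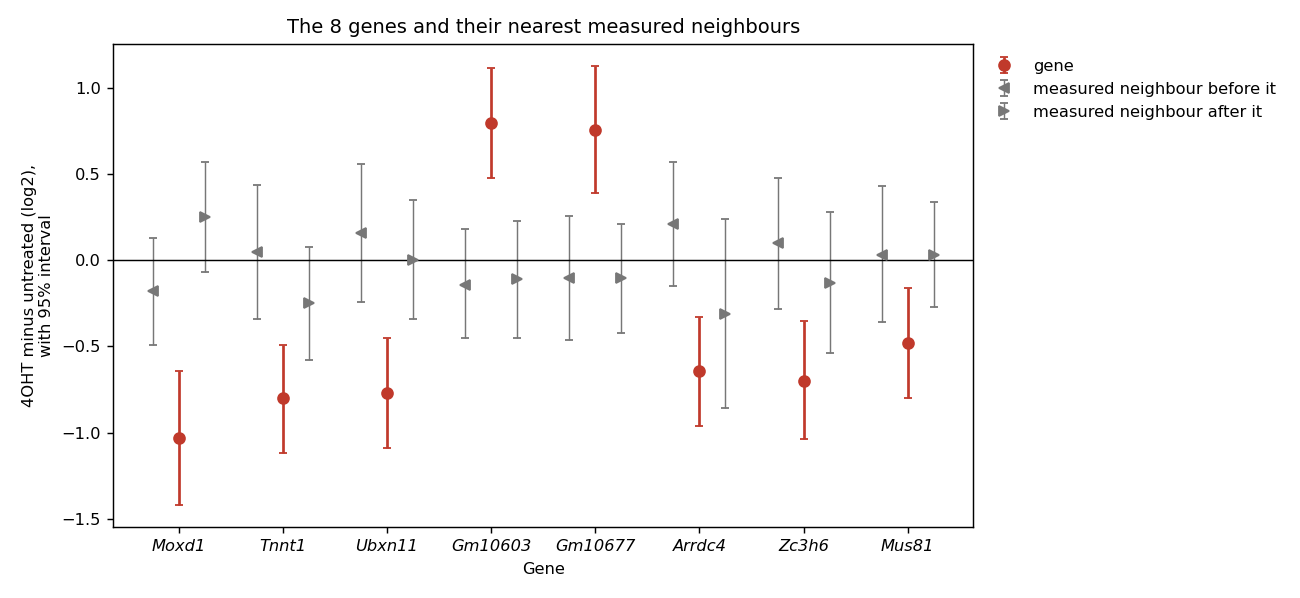
4OHT minus untreated on the log2 scale (y axis) for each of the 8 genes (red) and the nearest measured gene before and after it on the chromosome (grey triangles), with the 95% interval of each gene. The neighbours lie between -0.31 and 0.25, and their intervals include 0.

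Related genes were described for the 6 coding genes. Txnip, the relative of Arrdc4 that binds thioredoxin and limits glucose uptake, had a signal of 9.82 and 10.01 on the 4OHT arrays, 10.50 and 10.11 on the Shld1 arrays and 10.42 and 10.47 on the untreated arrays. Both 4OHT arrays lay below the other 4, and 4OHT minus untreated was -0.53 (SE 0.17, 95% interval -0.90 to -0.16; limma, adjusted p = 0.96). 4OHT minus Shld1 was -0.38 (SE 0.17), with 0.09 between the nearest arrays. MondoA itself, encoded by Mlxip, differed by -0.07 (SE 0.14) between 4OHT and untreated, and its partner Mlx by -0.14 (SE 0.14). Over the 8 alpha-arrestin and glucose-sensing genes, 4 were lower and 4 higher, with a median of -0.02 and 0 past the adjusted test.

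Of the 13 other genes of the thin filament, which carries the troponin complex, 6 were lower and 7 higher with 4OHT than untreated, between -0.25 and 0.41, with a median of 0.01 and 0 past the test. Tnnt2 and Tnnt3, the cardiac and fast skeletal troponin T genes, differed by 0.13 (SE 0.24) and 0.15 (SE 0.21), and Tnni1, slow skeletal troponin I, by -0.01 (SE 0.14). Skeletal muscle markers had list means of 4.03 to 4.26 on the 4OHT arrays, 3.98 to 4.21 on the Shld1 arrays and 4.17 to 4.18 on the untreated arrays. Of the 7 markers 4 lay above the low-signal level, and the factors Myog and Myf5 lay below it in each group, while Myod1 was at 4.73 with 4OHT, 4.68 with Shld1 and 4.64 untreated.

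For Mus81, 9 of 10 genes of junction cutting and resolution were measured, and 5 were lower and 4 higher with 4OHT, between -0.33 and 0.17, with a median of -0.02. Its partner Eme1 differed by 0.15 (SE 0.15), the scaffold gene Slx4 by 0.17 (SE 0.14) and the nuclease gene Slx1b by -0.02 (SE 0.18). For Ubxn11, the 15 genes of p97 and UBX proteins ran from -0.26 to 0.16 with a median of -0.02; Vcp, which encodes p97, differed by -0.04 (SE 0.15), its cofactor gene Nsfl1c by -0.02 (SE 0.14), and Faf1 by -0.26 (SE 0.16). For Zc3h6, the 9 measured CCCH genes ran from -0.18 to 0.16 with a median of -0.02, with Zc3h4 at 0.04 (SE 0.14), Zc3h8 at 0.10 (SE 0.17) and Zc3h3 at -0.09 (SE 0.25). For Moxd1, the 6 genes of copper monooxygenases and catecholamine synthesis ran from -0.53 to 0.36 with a median of 0.01, with Dbh, dopamine beta-hydroxylase, at -0.09 (SE 0.14), Pam, which amidates peptides, at 0.03 (SE 0.14) and Th, tyrosine hydroxylase, at 0.36 (SE 0.22). The lowest was Ddc, the decarboxylase that makes dopamine, named after its value was seen, with 4.20 and 4.06 on the 4OHT arrays, 4.08 and 3.98 on the Shld1 arrays and 4.66 on both untreated arrays. Its arrays were below the untreated ones with both agents: 4OHT minus untreated was -0.53 (SE 0.14, 95% interval -0.84 to -0.21; limma, adjusted p = 0.96) and Shld1 minus untreated -0.63 (SE 0.14; limma, adjusted p = 0.999). Of the 6, 3 were lower and 3 higher, and 2 of the 6 lay above the low-signal level. No gene of the 6 lists passed in any comparison (0 in each list; limma, 0% of all genes), and the list medians ran from -0.07 to 0.09 for 4OHT minus Shld1 and from -0.08 to 0.01 for Shld1 minus untreated.

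**Figure D5:**
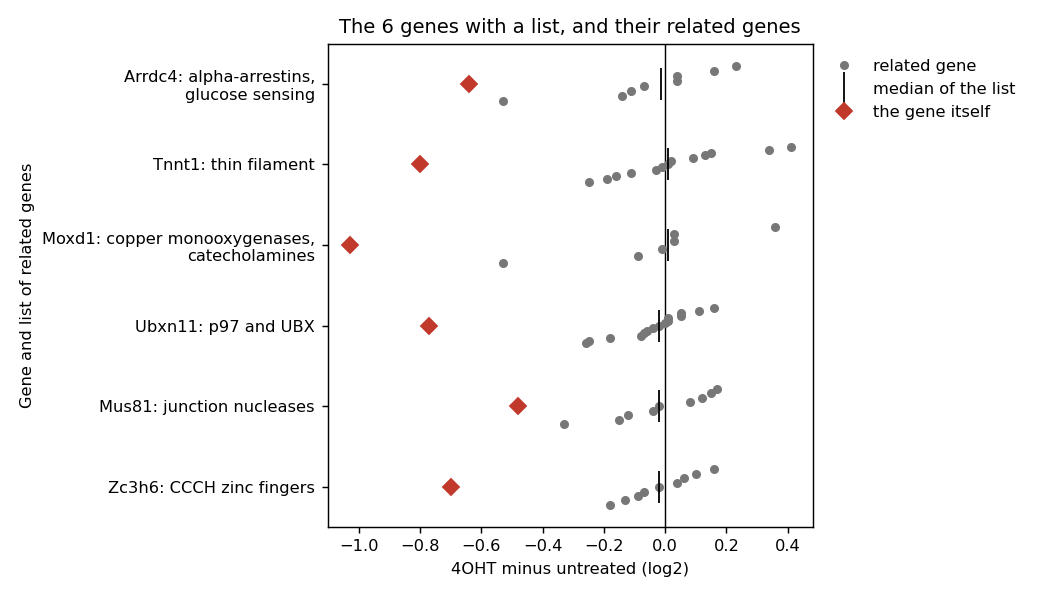
4OHT minus untreated on the log2 scale (x axis) for the 6 coding genes (red diamonds) and the measured genes of each list of relatives (grey points; black bars are list medians, which lie between -0.02 and 0.01). Txnip, at -0.53, is the grey point nearest to Arrdc4.

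The genes with the most similar profile over the 6 arrays were found by the root mean square (RMS) difference of signals centred on each gene's mean, among the 12841 genes above the low-signal level. With 6 arrays and so many genes, a close match is found for most profiles, so these are a description only. Nearest to Tnnt1 were Fabp5, a fatty acid binding protein gene (RMS 0.13), and Arrdc4 (0.13), and nearest to Moxd1 were Gch1, the first enzyme of tetrahydrobiopterin synthesis (0.26), and Tnnt1 (0.27). Ubxn11 was nearest to the germ cell gene Mael (0.07) and to Fam162a (0.08), and Arrdc4 to the DNA repair gene Xpa (0.07) and to 1110051M20Rik (0.08). Zc3h6 was nearest to Ddit3, the stress factor CHOP, and to the splicing factor gene Esrp1 (0.06 each), and Mus81 to Morn2 and to the calcium-binding S100a6 (0.06 each). Ddit3 showed the same order of groups as Zc3h6, with 6.86 and 7.09 on the 4OHT arrays, 7.38 and 7.16 on the Shld1 arrays and 7.51 and 7.67 on the untreated arrays. Of the noncoding genes, Gm10603 was nearest to Olfr401 (0.10) and Cachd1 (0.14), and Gm10677 to the developmental factor gene Eya1 (0.14) and the zinc finger gene Zfp111 (0.15). Olfr401 is itself one of the olfactory receptor genes that set the low-signal level, although it lay above that level on all 6 arrays. Its 4OHT minus untreated difference was 0.85 (SE 0.16), with both 4OHT arrays above the other 4, so a gene of the reference set showed the pattern of Gm10603. Within the 8, the smallest RMS differences were 0.09 between Ubxn11 and Zc3h6 and 0.10 between Ubxn11 and Arrdc4.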

How the data were processed

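RNA of 6 samples was measured on single-colour Affymetrix arrays. The authors deposited 1 log2 value per probe set and array; the sources used here do not say how they corrected, summarized and normalized the signal, and of tools the submitters' processing notes list limma 3.14. The values were used as deposited, and the log2 scale was read from their range. Names came from the platform annotation, updated by Entrez identifier: 21789 had 1 symbol, 1621 several and 12146 none. Only those with 1 symbol were named, by the brightest probe set per gene, which left 19938 genes.

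For each comparison, limma 3.58.1 (R 4.3.3) was run on all 6 arrays with a mean per group and two-sided tests adjusted by Benjamini-Hochberg over all 19938 genes at 0.05. The limma code was tested on simulated data with known changes in 4OHT against untreated. That was a check of the code, and no detection rate for differences as small as those of the 8 genes is given here. Residual degrees of freedom were 3, and moderation added 6.77. The number of arrays limits the precision (median SE 0.16). The 8 genes and all lists were chosen with earlier results of these data known. Genes named beside them are the first 3 measured of each list, the nearest measured neighbours and the 2 most similar profiles per gene. The sources used here do not say whether equal replicate numbers mark paired samples, and the main fit did not pair them. Replicate deviations correlated at 0.05 (4OHT and untreated), -0.194 (4OHT and Shld1) and -0.079 (Shld1 and untreated). These values cannot settle whether samples were paired or shared a batch, since the numbers could also be crossed between groups.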

Additional observations from a re-analysis of the deposited data

Results flagged for a closer look

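In 2 of the 8 genes the arrays of the 2 agents lay on opposite sides of the untreated arrays, which 2.72% of all genes did. The 8 genes were chosen because their 4OHT arrays stood apart, which raises this count, so nothing is read from the contrast. Gm10677 differed from untreated by 0.76 with 4OHT and by -0.34 with Shld1, and the Shld1 value was -0.515 without Shld1 replicate 1 and -0.159 without Shld1 replicate 2. Mus81 differed from untreated by -0.48 with 4OHT and by 0.23 with Shld1, which was 0.144 without Shld1 replicate 1. The difference between the agents was not tested, since both genes were chosen on the 4OHT arrays; both agents were set against the same untreated arrays.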

How the results depend on the processing

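All differences of the 8 genes in 4OHT against untreated and in 4OHT against Shld1 kept their sign under every alternative run (127 values in each comparison). In each of these genes both 4OHT arrays lay outside the range of the other arrays, so leaving out an array could not change a sign. Alternatives that change only the error, such as the intensity trend, returned the same difference. The kept signs are therefore no evidence of stability. Moxd1 was left out by the filter on the dimmest 40% of genes. In Shld1 against untreated, 122 of 127 values kept their sign. Tnnt1, at -0.02, turned to 0.021 with quantile normalization and 0.016 with centring on the 75th percentile, and ran from -0.07 to 0.033 when arrays were left out in turn; Gm10603, at 0.10, ran from -0.007 to 0.21. The cause was not tested. In the 2 comparisons with 4OHT, leaving out arrays moved Zc3h6 in 4OHT against Shld1, at -0.29, most in proportion, to -0.44 without 4OHT replicate 2 and -0.15 without replicate 1. In Shld1 against untreated, Arrdc4, at -0.12, was -0.188 without Shld1 replicate 1 and -0.059 without replicate 2. An intensity trend gave 1 call in 4OHT against Shld1, Snora62 (adjusted p = 0.0304), named after its value was seen and not among the 8; all other alternatives gave 0 calls in each comparison. With the replicate block the calls were 0 in each comparison, and with 4OHT numbers crossed, an alternative added after seeing the data, also 0. The count of genes above the low-signal level on all 6 arrays was 5 with the level set on each array too. With 2 arrays per group, differences near the median SE of 0.16 could not be resolved, and much larger ones did not pass after adjustment. Moxd1 in 4OHT against Shld1, at -1.30 (SE 0.17), had an adjusted p of 0.37 (limma).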
